A study of Mus musculus with 6 samples.

Results

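Itgb1 encodes the β1 integrin chain, and Itga1, Itga2, Itga10, Itga11, Itga3, Itga6 and Itga7 encode the α chains that join it to form receptors for collagen or laminin. These 8 genes were taken by name from a table of log2 signals in which 19933 genes had at least 1 transcript cluster with a single gene symbol. A transcript cluster is the set of probes that gives 1 value for a gene. Each of the 8 genes had 1 such cluster, none shared a cluster with another symbol, and all 8 were tested without a filter on low signals.

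The study, of a β1 integrin knockout, compared 3 mouse hearts labelled KO with 3 wild-type (WT) hearts, both at E12.5 of embryonic development. At that stage the mutant heart was not yet visibly impaired. Total RNA of each sample was hybridised to 1 Affymetrix Mouse Gene 1.0 ST array. Neither the strain, the allele, nor the promoter or cells in which the gene was deleted are given in the sources used here. The replicates are called biological in the study's design, which does not say whether each was 1 animal or several together, and each sample is called a heart below.

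An integrin reaches the cell surface as a pair of 1 α and 1 β chain, and the α chain sets which matrix protein the pair binds. The collagen receptor α chains carry an extra inserted domain that holds the collagen, while the laminin receptor α chains lack it. Unpaired chains are held back inside the cell, and 1 β1 gene serves all of these α partners. In heart muscle the laminin receptor with the Itga7 chain is a major β1 integrin after birth, and the Itga6 chain is known from the embryonic heart.

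In these hearts the β1 chain had a lower signal in every KO heart than in any WT heart, while the α chains differed less and in both directions. Of the 7 α genes, 4 had a higher mean in KO hearts and 3 a lower one, and only Itga10 separated the groups. None of the 8 genes passed the test over all transcript clusters, which was limma with a Benjamini-Hochberg adjusted p under 0.05. That test called 0 of 28767 clusters, or 0.0%, and limma's unadjusted p was under 0.05 for 1705, or 5.93%.

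**Figure D1:**
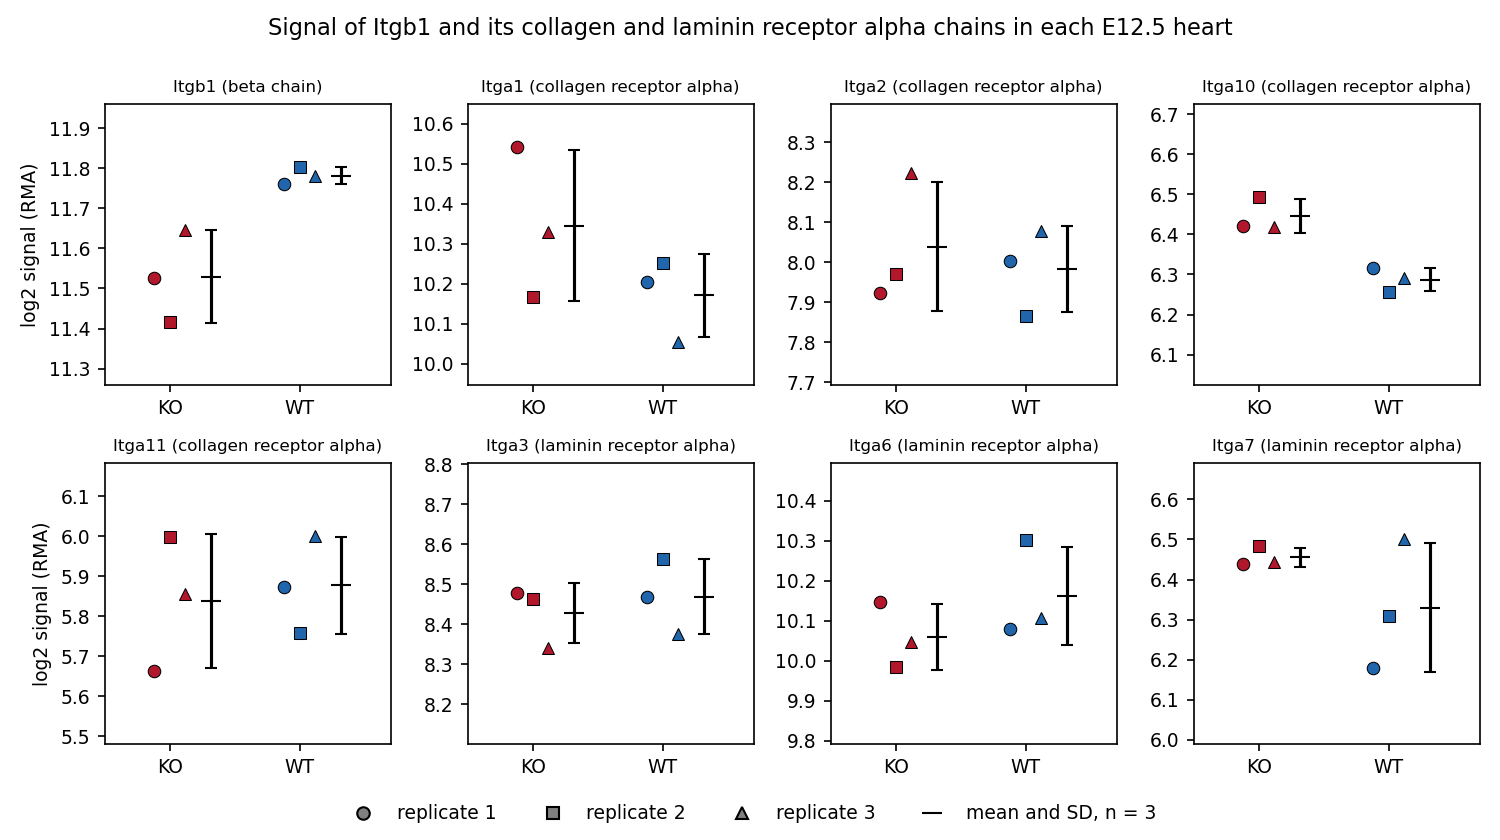
Log2 signal (y axis, a span of the same height in every panel) of the 8 genes in each KO heart (red, left) and WT heart (blue, right), with replicate numbers as symbols and the mean and SD of 3 hearts beside them. Itgb1 lies lower and Itga10 higher in all 3 KO hearts, and the groups overlap in the other 6 panels.

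Several hearts stood apart from the others in ways that the groups do not describe. KO replicate 1 had higher erythroid markers (4 of 6 measured) by 1.45 and higher megakaryocyte and platelet markers (4 of 5 measured) by 2.42 than the WT mean on the log2 scale. Cushion mesenchyme markers (4 of 4) had mean signals of 8.40, 8.57 and 9.41 in KO replicates 1 to 3, against 8.28, 7.73 and 9.20 in WT replicates 1 to 3. Liver markers (6 of 6 measured) had mean signals of 5.70 to 6.14 in KO hearts and 5.25 to 5.43 in WT hearts, with no overlap. The markers did not all move together. Alb had a mean of 6.37 in KO hearts and 4.80 in WT hearts, while Fgb had 5.21 and 5.23 and Ttr overlapped between the groups. These list means lay under the median signal of all clusters, 6.67. Xist, which is expressed from the inactive X chromosome, and Eif2s3y, a Y-linked gene, were both well expressed in KO replicate 1 (8.28 and 9.12) and in WT replicate 1 (8.37 and 9.35). WT replicate 2 had Xist at 11.26 and Eif2s3y at 5.77, and the other 3 hearts had Eif2s3y at 9.33 to 9.41 with Xist at 4.86 to 5.71. Sex was therefore not balanced between the groups. Endothelial and endocardial markers (7 of 7) had mean signals of 9.77 to 9.82 in KO hearts and 9.84 to 9.91 in WT hearts, with no overlap. In that list Pecam1 and Nfatc1 had a higher mean in KO hearts and the other genes a lower one. The part of sex and of blood cell, liver and endothelial markers in the values of the 8 genes was not tested. Cardiomyocyte markers (7 of 7), the check of the labelled tissue, had mean signals of 12.37 to 12.44 in KO hearts and 12.42 to 12.47 in WT hearts. Myh6 and Myl7 had a higher mean in KO hearts and the other genes of this list a lower one. Among the latter, Nkx2-5 did not overlap, at 10.24 to 10.35 in KO hearts and 10.43 to 10.48 in WT hearts.

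The mean log2 signals of the 8 genes over the 6 arrays ran from 5.86 for Itga11 to 11.66 for Itgb1. Itgb1 was brighter than 97.6% of all clusters, Itga1 than 93.1%, Itga6 than 92.2%, Itga3 than 74.4% and Itga2 than 68.2%. Itga7 and Itga10 lay above 46.1% and 45.7% of clusters, and Itga11 lay lower still. As a yardstick of clusters with little or no transcript in a heart, 1035 clusters of olfactory receptor genes had a median signal of 4.13. Of these, 4.44% were at or above Itga11, 1.35% at or above Itga10 and 1.26% at or above Itga7, and none reached Itga1, Itga3, Itga6 or Itgb1. Probes differ in how strongly they bind, so these positions do not rank the genes by transcript amount. RMA compresses differences at low signals, which bears on Itga7, Itga10 and Itga11.

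**Figure D2:**
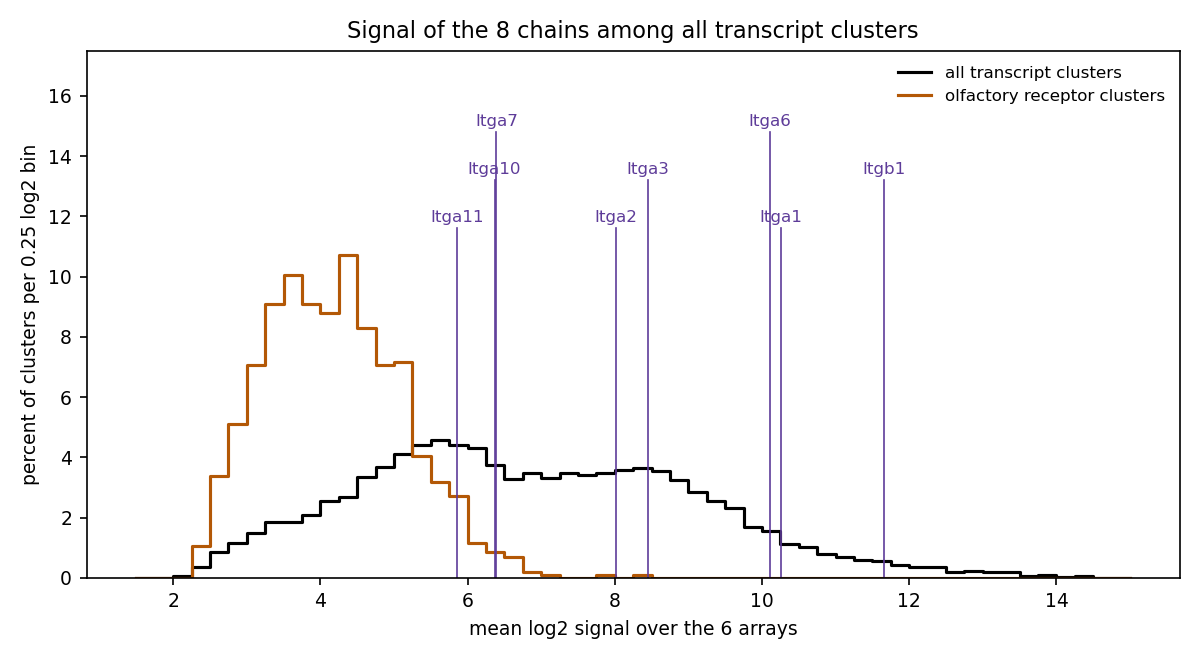
Percent of transcript clusters (y axis) by mean log2 signal over the 6 arrays (x axis, bins of 0.25), for all 28767 clusters (black) and for 1035 olfactory receptor clusters (brown), with a line at each of the 8 genes. Itga11, Itga10 and Itga7 stand at 5.86, 6.37 and 6.39, under the median of all clusters of 6.67, and the other 5 genes stand above it.

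Itgb1 (transcript cluster 10576661) encodes the shared β1 chain and is the gene that the study's knockout concerns. Its log2 signal was 11.53, 11.42 and 11.65 in KO replicates 1 to 3, against 11.76, 11.80 and 11.78 in WT replicates 1 to 3. All 3 KO hearts lay below all 3 WT hearts, with a gap of 0.12 between the closest hearts of the groups. The KO hearts also differed more among themselves, over a range of 0.23, than the WT hearts did, over 0.04. The SDs of Itgb1 were 0.12 and 0.02. A wider spread in KO hearts was general, with a median SD over all clusters of 0.14 in KO hearts and 0.10 in WT hearts. Among clusters as bright as Itgb1 or brighter the median SDs were 0.07 and 0.04. The KO minus WT difference was -0.25 ± 0.09 (log2, SE), with a 95% interval of -0.46 to -0.04, which corresponds to 0.73 to 0.97 times the WT signal. Limma's adjusted p was 0.797 and the unadjusted p 0.0235. An exact two-sided permutation test gave p = 0.1, and no smaller value is possible with 3 hearts a group. Among the 677 clusters as bright as Itgb1 or brighter, 2 had a difference as low as that of Itgb1 or lower, and Itgb1 is 1 of these 2.

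A cluster combines probes along a transcript, so a gene that lost some of its exons can keep signal from the rest. Neither the deleted part nor the probe positions are given, and the signal therefore does not check the label of any heart. In RNA of a whole heart, fewer cells of a type and less RNA per cell cannot be told apart. Itgb1 stayed lower when any heart was left out, at -0.20 without KO replicate 2 and -0.31 without KO replicate 3. Without KO replicate 1, the heart with high blood cell markers, the difference was -0.25, and without WT replicate 2, the heart with low Y-linked signal, it was -0.24. Without both hearts that had Xist and Y-linked signal, KO replicate 1 and WT replicate 1, it was -0.26.

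For the background, 1901 clusters, or 6.61%, lay wholly lower in KO hearts, and 1728, or 6.01%, wholly higher. Among the 8 genes 1 lay wholly lower, Itgb1, and 1 wholly higher, Itga10, so neither count says anything about the 8 genes as a set. At an unadjusted p under 0.05 there was 1 gene of the 8, Itgb1, against the 5.93% of all clusters given above. The median difference of the 7 α genes was 0.06 on the log2 scale and that of all clusters was -0.01.

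Among the collagen receptor α chains, Itga1 (cluster 10412298) encodes the chain that favours basement membrane collagen and is known from smooth muscle, capillary endothelium and fibroblasts. The log2 signal of Itga1 was 10.54, 10.17 and 10.33 in KO hearts, against 10.20, 10.25 and 10.06 in WT hearts. KO replicate 1 was the highest heart and WT replicate 3 the lowest, and KO replicate 2 fell inside the WT range. The difference was 0.17 ± 0.12 (SE), with a 95% interval of -0.10 to 0.45 (limma, adjusted p = 0.801). Without KO replicate 1 it was 0.08, without WT replicate 3 it was 0.12, and without KO replicate 2 it was 0.26. With arrays weighted by quality it was 0.03. Smooth muscle and pericyte markers (6 of 6), measured beside it, had mean signals of 8.87, 8.63 and 9.30 in KO hearts and 8.66, 8.38 and 8.81 in WT hearts. In this list Rgs5 was 8.12 in KO replicate 3 and 5.45 to 6.40 in the other hearts. Acta2 had a lower mean in KO hearts, at 12.74 against 12.79, and the other genes a higher one. The part of these markers in the Itga1 difference was not tested.

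The gene Pelo, which encodes a ribosome rescue factor, overlaps Itga1 in the mouse gene table and has a cluster of its own on the array. Its log2 signal was 8.45, 8.22 and 8.33 in KO hearts, against 8.25, 8.20 and 8.11 in WT hearts, a difference of 0.14 ± 0.09 (SE; limma, adjusted p = 0.801). The highest heart, KO replicate 1, and the lowest, WT replicate 3, were those of Itga1. Pelo was picked after its values were seen. Whether the clusters share transcripts was not tested. Mettl7b, which overlaps Itga7, was dim at 4.06 to 4.45 in KO hearts and 4.14 to 4.36 in WT hearts, and no other measured gene overlaps the 8 members.

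Itga2 (cluster 10412267) encodes the collagen receptor chain of platelets and many epithelia. The log2 signal of Itga2 was 7.92, 7.97 and 8.22 in KO hearts, against 8.003, 7.87 and 8.08 in WT hearts. The groups overlapped, with replicate 3 the highest heart in each group. The difference was 0.06 ± 0.11 (SE), with a 95% interval of -0.20 to 0.31. It turned to -0.04 without KO replicate 3 and to -0.0015 without WT replicate 2, so no direction held. KO replicate 3 was the highest heart and WT replicate 2 the lowest in Itga2 and also in the cushion mesenchyme markers. The part of these markers, or of the platelet markers that were high in KO replicate 1, in the Itga2 values was not tested.

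Itga10 (cluster 10494467) encodes a collagen receptor chain best known from cartilage and also found in heart and skeletal muscle. The log2 signal of Itga10 was 6.42, 6.49 and 6.42 in KO hearts, against 6.32, 6.26 and 6.29 in WT hearts. Every KO heart was higher than every WT heart, and the spread inside each group was small, with SDs of 0.04 in KO hearts and 0.03 in WT hearts. The difference was 0.16 ± 0.08 (SE), or 1.12-fold, with a 95% interval of -0.02 to 0.34. It passed neither limma's test (adjusted p = 0.797; unadjusted p = 0.0786) nor an exact permutation test (p = 0.1, the smallest possible). With each heart left out in turn the difference stayed between 0.13 and 0.17. The gene lay under the median signal of all clusters, so this separation is one of low signals.

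Itga11 (cluster 10586079) encodes the receptor chain for fibrillar collagen on fibroblasts and other mesenchymal cells. In KO hearts the log2 signal was 5.66, 5.997 and 5.86, against 5.87, 5.76 and 6.0 in WT hearts. It was the dimmest of the 8 genes, and the highest values of the groups, in KO replicate 2 and WT replicate 3, were level. The difference of -0.04 ± 0.11 (SE), with a 95% interval of -0.30 to 0.23, turned to 0.05 without KO replicate 1, to 0.02 without WT replicate 3 and to 0.10 with arrays weighted by quality. No direction could be given for it at this signal.

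Among the laminin receptor α chains, Itga3 (cluster 10390117) encodes a laminin receptor chain of epithelia, including the kidney and the skin. In this gene the log2 signal was 8.48, 8.46 and 8.34 in KO hearts, against 8.47, 8.56 and 8.38 in WT hearts. The groups covered nearly the same range, and replicate 3 was the lowest heart in each. The difference was -0.04 ± 0.09 (SE), with a 95% interval of -0.25 to 0.17, or 0.84 to 1.12 times the WT signal. It was 0.0065 without WT replicate 2 and 0.0028 without KO replicate 3, so no direction held.

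Itga6 (cluster 10472820) encodes the laminin receptor chain of many embryonic and epithelial cells, which also pairs with the β4 chain. The log2 signal of Itga6 was 10.15, 9.98 and 10.05 in KO hearts, against 10.08, 10.30 and 10.11 in WT hearts. WT replicate 2 was the highest heart, and KO replicate 1 lay above the other WT hearts. The difference was -0.10 ± 0.10 (SE), with a 95% interval of -0.33 to 0.12, or 0.80 to 1.09 times the WT signal (limma, adjusted p = 0.856). It kept its negative sign in all 14 alternative fits, at -0.03 without WT replicate 2 and -0.19 without both hearts that had Xist and Y-linked signal. Itgb4, its other β partner, had a log2 signal of 6.70, 6.55 and 6.57 in KO hearts, against 6.47, 6.45 and 6.68 in WT hearts, a difference of 0.07 ± 0.10 (SE) that was 0.03 without KO replicate 1 and 0.15 without WT replicate 3.

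Itga7 (cluster 10367440) encodes the laminin receptor chain of skeletal and heart muscle. Its log2 signal was 6.44, 6.48 and 6.44 in KO hearts, against 6.18, 6.31 and 6.50 in WT hearts. The KO hearts lay within 0.04 of each other, while the WT hearts spanned 0.32 and enclosed them. The difference was 0.13 ± 0.10 (SE), with a 95% interval of -0.11 to 0.36 (limma, adjusted p = 0.831). It was 0.05 without WT replicate 1, 0.21 without WT replicate 3 and 0.06 without both hearts that had Xist and Y-linked signal. Skeletal muscle markers (4 of 4 measured) had mean signals of 5.55, 5.51 and 6.27 in KO hearts and 5.47, 5.54 and 5.70 in WT hearts. In this list Myh3 was 7.17 in KO replicate 3 and 5.17 to 5.39 in the other hearts. Myf5 had a lower mean in KO hearts, at 5.18 against 5.31. The part of these markers in the Itga7 values was not tested.

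**Figure D3:**
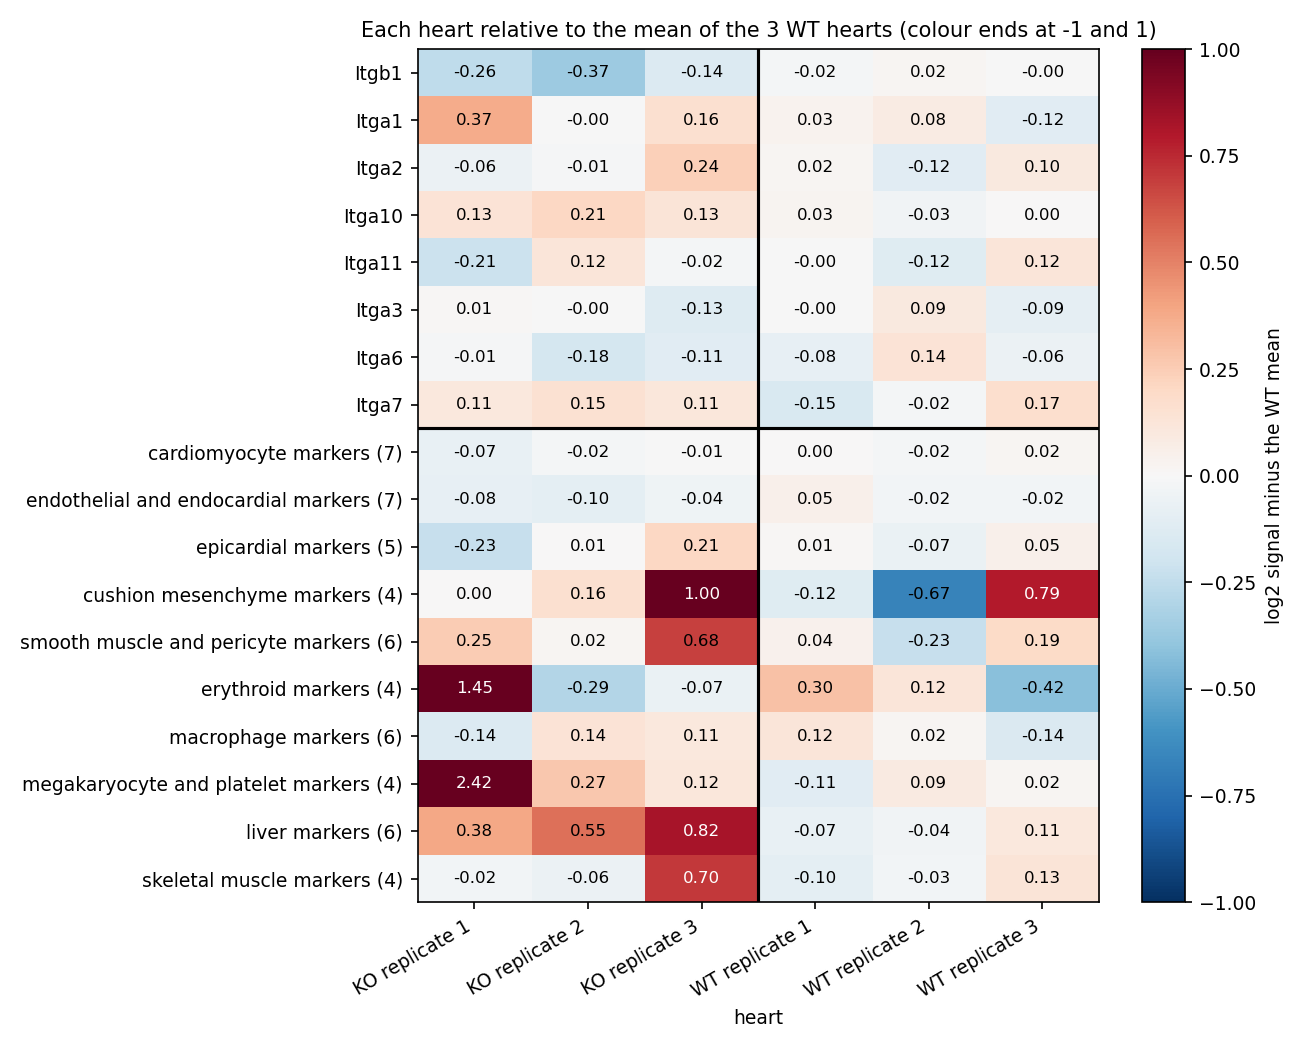
Log2 signal of the 8 genes (upper rows) and mean log2 signal of 10 lists of cell type markers (lower rows, number of markers in parentheses) in each heart, as the difference from the mean of the 3 WT hearts, with KO hearts left of WT hearts and colours that end at -1 and 1. The 8 genes stay within -0.37 and 0.37 of the WT mean, while erythroid markers reach 1.45 and megakaryocyte and platelet markers 2.42 in KO replicate 1.

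The balance between the chains was then compared inside each heart, as the α signal minus the Itgb1 signal of the same array. Probe affinities cancel in the KO minus WT difference of this ratio, which was tested with limma across the 28766 clusters other than Itgb1. Every cluster carries the lower Itgb1 value of the KO hearts here, so the median of all clusters was 0.24. The differences of the α chains are read against that shift. Limma tested each difference against 0, so its p values include the Itgb1 difference. Whether an α chain differed from the shift was not tested. The test against 0 called 5 clusters, or 0.0174%, and none of the 7 α chains. Of the 5, which are named after their values were seen, Runx1, a transcription factor gene of blood formation, and Acp1, a phosphatase gene, had a symbol, and the other 3 had no single symbol. The count was 0 without KO replicate 2, 39 without KO replicate 1 and 8908 without KO replicate 3.

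Among the collagen receptor chains, the Itga1 ratio was -0.98, -1.25 and -1.32 in KO hearts, against -1.56, -1.55 and -1.72 in WT hearts. The groups did not overlap, and the difference was 0.43 ± 0.13 (SE), or 1.34-fold (limma, adjusted p = 0.115). The Itga10 ratio was -5.10, -4.92 and -5.23 in KO hearts, against -5.45, -5.55 and -5.49 in WT hearts. Its difference was 0.41 ± 0.13 (SE; limma, adjusted p = 0.115), again with no overlap. The ratios of Itga2 and Itga11 differed by 0.31 ± 0.13 and 0.21 ± 0.15 (SE), the first without overlap between the groups.

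Among the laminin receptor chains, the Itga6 ratio was -1.38, -1.43 and -1.60 in KO hearts, against -1.68, -1.50 and -1.67 in WT hearts. The groups overlapped, and its difference of 0.15 ± 0.13 (SE; limma, adjusted p = 0.366) was the smallest of the 7 and below the median of all clusters. The Itga7 ratio differed by 0.38 ± 0.13 (SE) with no overlap, and that of Itga3 by 0.21 ± 0.13 (SE) with overlap. In all, 4 of the 7 α chains had a ratio wholly higher in KO hearts, against 39.1% of all clusters. Without KO replicate 3 the ratios of Itga1, Itga10 and Itga7 passed (limma, adjusted p = 0.0345, 0.0311 and 0.0416), in a fit that called 8908 clusters. That of Itga1 also passed with a trended robust variance (adjusted p = 0.0424), in a fit that called 950. These passes were against 0. The median difference of all clusters was 0.31 without KO replicate 3 and 0.24 with the trended robust variance.

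**Figure D4:**
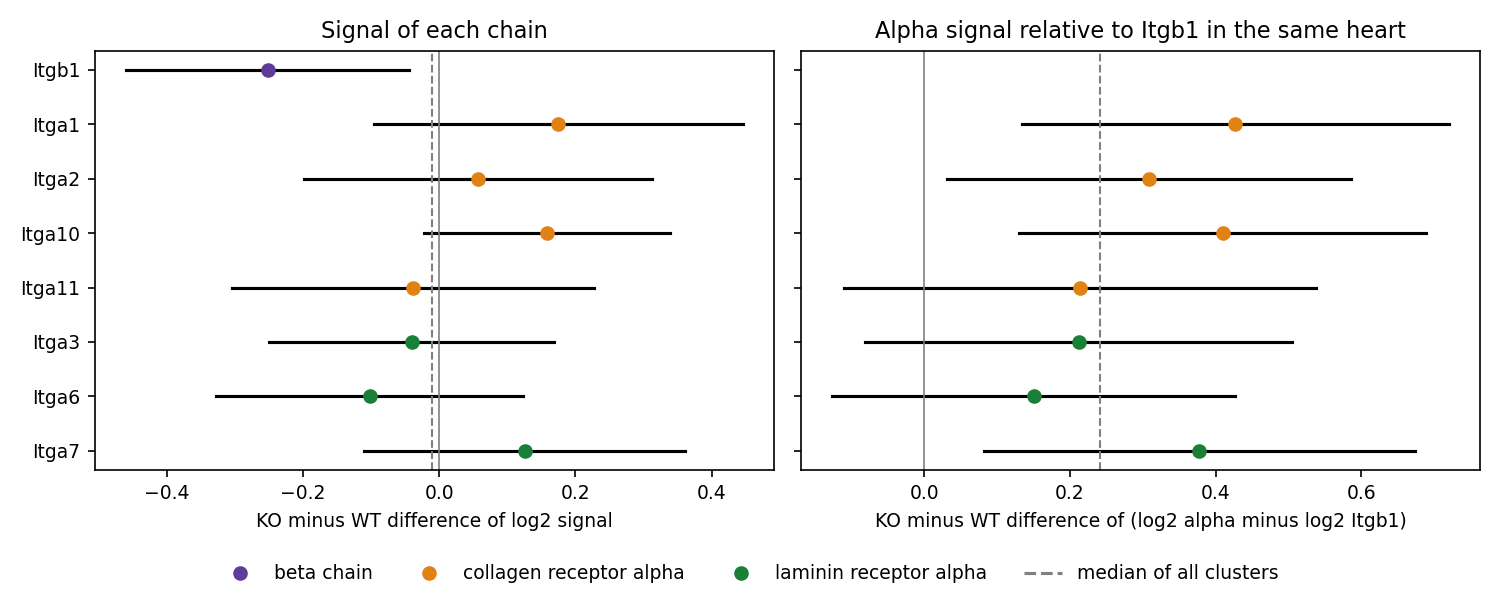
KO minus WT difference with its 95% interval from limma for the log2 signal of each gene (left) and for the α signal relative to Itgb1 in the same heart (right), with a dashed line at the median of all clusters. On the left only the interval of Itgb1 lies clear of 0, and on the right the 7 α chains lie on either side of the median of 0.24.

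Other genes with a role at the same receptors were grouped by that role. The 5 other α chains that pair with β1, which bind fibronectin and other matrix ligands, had 0 genes past the test in either direction, with 4 higher and 1 lower by their means. Itgav, the αv chain, was 9.79, 9.43 and 9.74 in KO hearts, against 9.41, 9.33 and 9.46 in WT hearts, with overlap. Its difference of 0.26 ± 0.11 (SE) was close to that of Itga9, at 0.22 ± 0.10. Itga4 differed by 0.27 ± 0.28, Itga8 by 0.14 ± 0.17 and Itga5, the fibronectin receptor chain, by -0.06 ± 0.10. The Itga4 difference was 0.04 without KO replicate 3, 0.05 without WT replicate 2 and 0.55 without WT replicate 3, and that of Itgav was 0.12 with array weights.

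The receptors outside the integrin family that bind the same ligands gave 0 calls as well. For collagen, 4 of 5 were measured, with 2 higher and 2 lower by their means. The discoidin domain receptor Ddr2, a collagen-activated tyrosine kinase of mesenchymal cells, was 7.17, 7.04 and 7.79 in KO hearts, against 6.82, 6.68 and 7.34 in WT hearts. It was highest in replicate 3 of each group, as the cushion mesenchyme markers were, and differed by 0.39 ± 0.23 (SE), and the part of those markers in it was not tested. The Ddr2 difference was 0.16 without KO replicate 3, 0.25 without WT replicate 2 and 0.58 without WT replicate 3. Its relative Ddr1, which epithelia use, differed by -0.02 ± 0.09, and the leukocyte collagen receptor Lair1 by -0.29 ± 0.15. Lair1 differed by -0.17 without WT replicate 3 and by -0.50 without both hearts that had Xist and Y-linked signal. For laminin, 8 of 8 were measured, with 5 higher and 3 lower and a range of -0.24 to 0.07. Dystroglycan, Dag1, which links laminin to the muscle cytoskeleton, differed by 0.03 ± 0.08, and the laminin receptor Bcam by -0.12 ± 0.10, with a range of -0.19 to -0.06 when WT replicate 3, WT replicate 1 or KO replicate 3 was left out.

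Of the partners of the complex in the membrane and the cytoplasm, the tetraspanin Cd151, which holds laminin receptors in the membrane, differed by -0.07 ± 0.09 (log2, SE), by -0.02 without WT replicate 1 and by -0.14 without WT replicate 3. Itgb1bp2, or melusin, a muscle protein that binds the β1 tail, was 7.25, 7.77 and 8.09 in KO hearts, against 8.26, 8.13 and 8.09 in WT hearts. KO replicate 1 was the lowest heart, and KO replicate 3 lay at the level of WT replicate 3. The difference was -0.45 ± 0.20 (SE; limma, adjusted p = 0.797). It was -0.23 without KO replicate 1, -0.18 without both hearts that had Xist and Y-linked signal, and -0.65 without KO replicate 3 by the same fit. Itgb1bp1, a protein that binds the same tail and dampens integrin activation, differed by -0.16 ± 0.12, by -0.05 without KO replicate 1, by -0.06 without both hearts that had Xist and Y-linked signal, and by -0.25 without KO replicate 3.

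The ligands were described by 10 collagen chains and 10 laminin chains, and 0 chains passed in either direction. Collagen chains had 9 higher and 1 lower by their means, a median difference of 0.13 and a range of -0.11 to 0.69. Of these 10, 2 lay wholly higher in KO hearts, against 6.01% of all clusters. They were Col6a1, at 8.71, 8.48 and 8.71 in KO hearts against 8.39, 8.12 and 8.31 in WT hearts, and Col6a2, with a difference of 0.20 ± 0.08. The third chain of collagen VI, Col6a3, differed by 0.69 ± 0.30 with overlap, by 0.44 without KO replicate 3 and by 0.43 without WT replicate 2. The part of the cushion mesenchyme and smooth muscle markers in these collagen values was not tested. Laminin chains had 7 higher and 3 lower, a median of 0.06 and a range of -0.06 to 0.16, with no chain free of overlap.

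Finally, the genes whose profile over the 6 hearts was most like that of Itgb1 were found among 10844 genes at or above the median signal. Likeness was the root mean square distance between the 6 log2 values after each gene was centred on its own mean. Sema3a, a secreted guidance protein, was nearest at 0.024, followed by the smooth muscle protein gene Cnn1 at 0.037, Depdc1b and Mylip at 0.045 and Mtrf1l at 0.046. Sema3a was 9.38, 9.25 and 9.50 in KO hearts, against 9.56, 9.61 and 9.58 in WT hearts, with the same tight WT values and the same lowest heart, KO replicate 2, as Itgb1. Of the α chains, Itga6 was the nearest, at a distance of 0.116, which ranked 1035 among the 10844 genes. Itga1 was the farthest, at 0.243, which ranked 9352. Itga7, Itga10 and Itga11 lay under the median signal and were not among the genes searched. These genes were picked for their likeness over 6 arrays that share normalization, so the distances are a description.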

How the data were processed

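The authors deposited log2 signals, 1 per transcript cluster and array. RMA (robust multi-array average), a background correction, normalization and probe summary, is named in the submitters' processing notes. No software version or genome build is given in the sources used here. Array medians lay between 6.65 and 6.71, and the number of arrays, 3 per group, limits the precision. Clusters were named from the platform annotation, updated by Entrez identifier. Gene overlaps came from the RefSeq mouse gene table, and no coordinates are printed.

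KO was compared with WT using lmFit and eBayes in limma 3.58.1 (R 4.3.3), with Benjamini-Hochberg adjustment over all clusters and no covariate. The fit was repeated after each array's Itgb1 value was subtracted. The fitting step was tested on simulated data. Exact permutation tests ran in scipy 1.17.1. Genes were named by role, plus the 5 profiles nearest to Itgb1. The 8 genes and all lists were chosen with earlier results of these data known. Alternatives changed the normalization (cyclic loess, median centring), the clusters tested (brighter ones, or 1 for each gene), the variance model (trended and robust, or weighted arrays), the block on replicate number, and the hearts used. Leaving out both hearts with Xist and Y-linked signal was chosen after seeing the data. Gp6 was not analysed here.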

Additional observations from a re-analysis of the deposited data

How the results depend on the processing

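None of the 8 genes passed limma's test on its own signal in any of 14 alternative fits. Itgb1 stayed lower in KO hearts, at -0.33 to -0.20 on the log2 scale, and Itga10 higher, at 0.13 to 0.19. With each heart left out in turn, the difference ranged from -0.0875 to 0.0065 for Itga3, from -0.035 to 0.11 for Itga2, from -0.12 to 0.049 for Itga11, from -0.11 to 0.0085 for Itga5, from -0.0585 to 0.0285 for Ddr1, from -0.00067 to 0.28 for Itga8 and from -0.00017 to 0.0598 for Dag1, so their direction was not fixed. Itga11 turned to 0.10 with array weights and 0.0465 without both hearts that had Xist and Y-linked signal. Ddr1 turned to 0.0092 with cyclic loess, 0.032 with array weights and 0.001 without those hearts, where Itgb4 turned to -0.0045. The cause was not tested.

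Clusters called numbered 0 to 1 with each heart left out and 1 without those hearts, the cluster AI506816 in each case, named after its values were seen. Relative to Itgb1, the count was 11 with cyclic loess, 1 with 1 cluster per gene, 950 with the trended robust variance, 1890 with array weights and 302 without those hearts, and ranged from 0 to 8908 with each heart left out. Over all clusters, same-numbered hearts deviated from their group means with correlations of -0.06 to -0.03. Such values show no pairing across the array as a whole and cannot exclude it in some genes. The SE of the Col6a3 difference was 0.11 with the replicate block and 0.30 in the main fit. That of Itgb1 was 0.11 with the block and 0.09 in the main fit. With the replicate block 0 clusters were called on their own signal, and limma's adjusted p for Itgb1 was 0.913 in that fit. Relative to Itgb1, the count with the block was 1588. The Itga1 ratio difference of 0.43 passed limma's test against 0 with the trended robust variance. With each heart left out, the ratio difference ranged from 0.31 to 0.46 for Itga7 and from 0.33 to 0.49 for Itga1. For Itga10 it ranged from 0.33 to 0.48. All 3 passed the test against 0 without KO replicate 3, where the median of all clusters was 0.31. The filter on dim clusters gave no value for Itga7, Itga10, Itga11, Itgb4 or Lair1.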
